A study of Homo sapiens with 3 samples.

Results

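HEG1 and KRT80 were 2 of the 34 genes whose promoters the study used as viewpoints to follow chromatin contacts. They were chosen here because more p300/CBP peaks lay within 100 kb of their transcription start site (TSS) in siFra-1 than in siCTL cells. The members were all peaks whose centre lay in the gene body or within 250 kb of the TSS, 62 peaks of 122221 in both lists. Of these, 22 lay around HEG1 and 40 around KRT80. Because the genes were chosen on their peak numbers in these same lists, every siCTL to siFra-1 difference below is a description and carries no test.

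The data are p300/CBP ChIP-seq peaks of MDA-MB-231, an established human triple-negative breast cancer line of the basal b type. Cells of the siCTL group received 4.5 nM of a negative control siRNA and cells of the siFra-1 group 4.5 nM of a pool of siRNAs against Fra-1, both for 72 h, and were fixed for 7 min. Each condition gave 1 library, made from pooled immunoprecipitations, so there was no replicate error and intervals cover counting error only. There were 82901 peaks in siCTL and 39320 in siFra-1, with positions but no heights or read numbers, so the depth behind a peak is unknown and width is the only measure of size. The lists hold no measure of Fra-1 itself, so its depletion could not be checked in them.

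p300 and CBP are closely related lysine acetyltransferases that are brought to enhancers and promoters by transcription factors, where they acetylate histones. Fra-1 is the Fos family member made from the FOSL1 gene and, paired with a Jun protein, binds DNA at the AP-1 motif TGAGTCA or TGACTCA. HEG1 is a transmembrane protein of the mucin type that anchors the cerebral cavernous malformation protein KRIT1 at the cell membrane and acts in endothelial junctions and heart development. KRT80 is a type II epithelial keratin, an intermediate filament protein, and its gene lies at the edge of the type II keratin cluster.

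HEG1 (ENSG00000173706) spans 124684554 to 124774841 on chromosome 3 in hg19, and KRT80 (ENSG00000167767) spans 52562780 to 52585798 on chromosome 12. Both genes are on the minus strand, so upstream of either gene means a higher coordinate. The surroundings differ, with 4 protein-coding start sites within 250 kb of that of HEG1 and 14 within 250 kb of that of KRT80, their own included. The sequences below are those the results turn on, read from GRCh37, which is the assembly also called hg19. They belong to the wide peaks found in siFra-1 cells alone, to the peaks at the TSS of KRT80 and upstream of HEG1 that were wider in siFra-1, and to 2 other shared peaks around KRT80, of which 1 holds a pair of AP-1 motifs and 1 a single one.

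Around HEG1, the first window starts just before the lower edge of the 250 bp siFra-1-only peak in SLC12A8 and runs into it. An AP-1 and a FOX motif, in capitals, both lie inside that peak. The second lies in its 500 bp neighbour and carries a cluster of 3 RUNX motifs in capitals. The third lies in the shared peak upstream of HEG1, with 3 TEAD motifs, of which the first pair overlaps, and with overlapping C/EBP motifs in capitals. A FOX motif between them, read as GTAAACA on this strand, is left in lower case.
SLC12A8 intron, 250 bp siFra-1-only peak (chr3:124848533-124848719, plus strand): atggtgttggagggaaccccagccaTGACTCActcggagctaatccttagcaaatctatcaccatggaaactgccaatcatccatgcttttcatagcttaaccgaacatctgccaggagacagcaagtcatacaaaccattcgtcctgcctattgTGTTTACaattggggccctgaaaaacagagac
SLC12A8 intron, 500 bp siFra-1-only peak (chr3:124847901-124847975, plus strand): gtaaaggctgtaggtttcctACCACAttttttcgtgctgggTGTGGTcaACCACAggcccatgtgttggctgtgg
HEG1 upstream, shared peak (chr3:124781979-124782125, plus strand): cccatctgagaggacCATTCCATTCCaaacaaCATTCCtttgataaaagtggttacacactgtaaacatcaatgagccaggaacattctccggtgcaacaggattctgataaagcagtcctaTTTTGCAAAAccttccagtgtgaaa

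Around KRT80, the first sequence lies towards the upstream end of the siCTL peak over the TSS and holds its AP-1 motif. The second lies in the 400 bp siFra-1-only peak upstream of KRT7, where capitals mark an AP-1 motif and a RUNX motif that overlaps a TEAD motif. The third lies in a shared peak in an intron of KRT7, and the fourth in the shared intergenic peak downstream of KRT80, in each case with AP-1 motifs in capitals.
KRT80 promoter peak (chr12:52586133-52586189, minus strand): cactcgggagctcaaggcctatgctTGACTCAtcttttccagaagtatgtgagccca
KRT7 upstream, 400 bp siFra-1-only peak (chr12:52624178-52624280, plus strand): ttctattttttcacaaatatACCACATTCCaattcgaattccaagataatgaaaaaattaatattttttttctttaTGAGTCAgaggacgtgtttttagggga
KRT7 intron, shared peak (chr12:52638013-52638069, plus strand): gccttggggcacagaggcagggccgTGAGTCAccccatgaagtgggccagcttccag
KRT80 downstream, shared peak (chr12:52541187-52541301, plus strand): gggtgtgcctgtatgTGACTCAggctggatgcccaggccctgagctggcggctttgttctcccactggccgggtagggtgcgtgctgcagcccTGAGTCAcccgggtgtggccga

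The first comparison asked how many peaks each list held around the 2 genes. In the 100 kb on either side of the HEG1 TSS, siCTL had 3 peaks and siFra-1 had 7, and they covered 750 and 2100 bp. For KRT80 the numbers were 17 and 18, and these peaks covered 3700 and 4700 bp. The siFra-1 to siCTL ratio of peak numbers was 2.33 at HEG1 (exact 95% interval 0.533 to 14) and 1.06 at KRT80 (0.515 to 2.19). These are the numbers the genes were chosen on, and both intervals include a ratio of 1. A ratio of 1 is not the general level of these lists, however. Over the 32 other viewpoints the same window held 480 siCTL and 255 siFra-1 peaks, which gives 0.531 (0.455 to 0.62). Of 19246 protein-coding genes with a peak in this window, 1478 (7.68%) had more siFra-1 than siCTL peaks, and 85.8% had fewer. A difference of at least 4 peaks, as at HEG1, was found at 165 of these genes (0.857%), and one of at least 1, as at KRT80, at all 1478. Among the viewpoints, KRT80 lay just inside the choice and SMAD6, with 12 peaks in either list, just outside. HK2, with 8 and 9 peaks, had more in siFra-1 as well and is not described here.

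Outside 100 kb, where peaks did not enter the choice, neither gene had more siFra-1 peaks. Between 100 and 250 kb from the HEG1 TSS both lists held 6 peaks, covering 1450 bp, and the ratio was 1 (0.267 to 3.74). In the same ring around KRT80 there were 4 siCTL peaks and 1 siFra-1 peak, all of 100 bp, and the ratio was 0.25 (0.00508 to 2.53). Of 19597 protein-coding genes with a peak in the ring, 5.69% had more siFra-1 peaks, 4.88% had as many and 89.4% had fewer. Over the 32 other viewpoints the ring held 549 peaks in siCTL against 271 in siFra-1, which gives 0.494 (0.425 to 0.572), and 31 of the 32 had fewer siFra-1 peaks, the exception being TNS3 with 11 and 12. HEG1 was the only viewpoint of the 34 with equal numbers in the ring. No siCTL peak lay between 230.9 and 295.3 kb from the HEG1 TSS, and no siFra-1 peak between 221.8 and 294.8 kb. The corresponding gaps around KRT80 ran from 235.9 to 285.7 kb and from 242.3 to 294.3 kb, so the limit of 250 kb cut through no group of peaks.

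**Figure D1:**
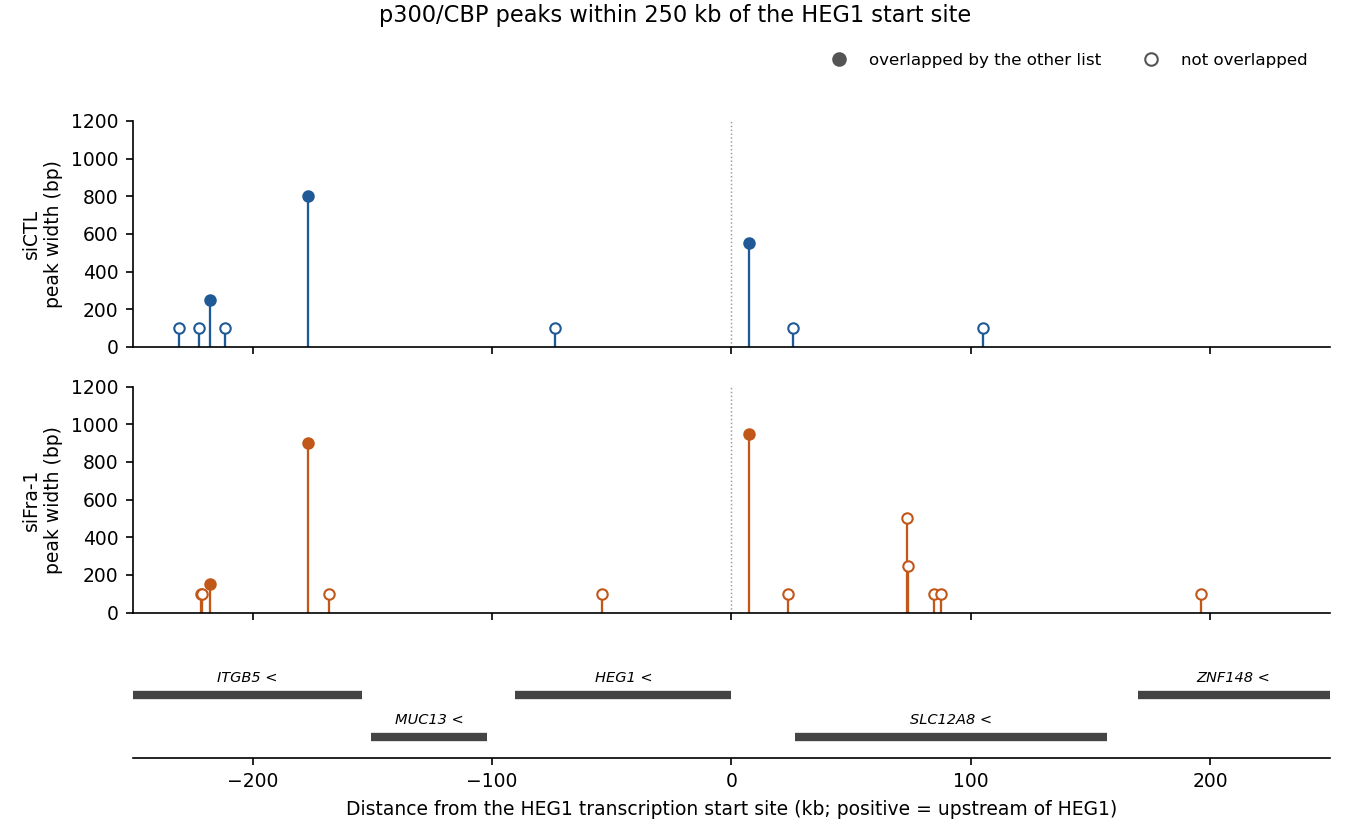
Each stem is 1 p300/CBP peak at its distance in kb from the HEG1 start site (x axis; positive is upstream) with its width in bp (y axis), for siCTL (top) and siFra-1 (middle), and protein-coding genes below with < or > for the strand. The siFra-1-only peaks of 500 and 250 bp stand at about 73 to 74 kb upstream, in SLC12A8, where the siCTL panel is empty.

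Taken over the whole region, HEG1 had 9 peaks in siCTL and 13 in siFra-1, which gives 1.44 (0.571 to 3.83), and KRT80 had 21 and 19, which gives 0.905 (0.46 to 1.77). At HEG1 the excess depended on the distance, with 2 peaks in each list within 50 kb of the TSS (1, 0.0725 to 13.8) and 15 against 16 within 500 kb (1.07, 0.494 to 2.32), or 15 against 15 there once neighbours within 500 bp were joined. Numbers around HEG1 split by side. Upstream of HEG1 there were 3 siCTL and 7 siFra-1 peaks, and downstream, gene body included, 6 and 6. Upstream of KRT80, towards KRT7 and the other keratins, siCTL had 10 peaks and siFra-1 had 15 (1.5, 0.63 to 3.73), and downstream 11 and 4 (0.364, 0.0844 to 1.23). Both intervals include 1, and with neighbours within 500 bp joined the upstream numbers were 10 and 11. Peaks were sparse around HEG1 in siCTL cells, where 24.8% of protein-coding genes had fewer within 250 kb of their TSS, but not in siFra-1 cells, where 76.1% had fewer. The corresponding shares for KRT80 were 62.8% and 90.1%. The median over all protein-coding genes was 16 siCTL peaks and 7 siFra-1 peaks.

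At HEG1, all peaks within 100 kb are listed here from downstream to upstream. The gene body held 1 narrow peak in each list, at chr3:124701252-124701351 in siCTL and at chr3:124720552-124720651 in siFra-1, both in introns of HEG1. They did not overlap and lay 19200 bp apart. No peak of either list reached the 3 kb window centred on the HEG1 TSS.

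The peak nearest to the HEG1 TSS lay 7.29 kb upstream and was found in both lists. It spanned chr3:124781852-124782401 in siCTL, 550 bp, and chr3:124781652-124782601 in siFra-1, 950 bp, and its centre fell in an exon of the non-coding gene ENSG00000288022. The siFra-1 peak extended 200 bp further on each side, so the centres coincided. Of 149 pairs in the whole lists with a siCTL width of 550 bp, the siFra-1 width was 950 bp or more in 5 (3.36%), and its median was 550 bp. The shared stretch held no AP-1 motif. It held 3 TEAD motifs (GGAATG), which transcription factors of the Hippo pathway bind, 3 C/EBP motifs (TTGCNNAA) and 1 FOX motif (TGTTTAC), and the siFra-1 peak took in 1 more TEAD and 1 more FOX motif at its lower end.

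Between this peak and SLC12A8 each list had 1 narrow peak, at chr3:124800302-124800401 in siCTL and chr3:124798552-124798651 in siFra-1, 1650 bp apart. SLC12A8 encodes a member of the cation-chloride cotransporter family, and its introns held 1 siCTL and 4 siFra-1 peaks. The siFra-1 peaks were at chr3:124847752-124848251 (500 bp), chr3:124848552-124848801 (250 bp), chr3:124859602-124859701 and chr3:124862302-124862401 (100 bp each). The first 2 lay 73.2 and 73.8 kb upstream of the HEG1 TSS, with 31600 and 31050 bp to the nearest siCTL peak. The only siCTL peak in SLC12A8, of 100 bp, lay 105 kb from the HEG1 TSS at chr3:124879852-124879951.

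These peaks carried the excess around HEG1. All 4 siFra-1 peaks of SLC12A8 lay within 100 kb of the HEG1 TSS, and without them the numbers would be 3 and 3. For the 500 and 250 bp peaks the nearest protein-coding TSS was that of HEG1, and for the narrow pair that of SLC12A8, 72.1 and 69.4 kb away. In the whole siFra-1 list, 242 of 1820 peaks of 500 bp and over had no siCTL overlap. The 250 bp peak held 1 AP-1 motif at its lower end and 1 FOX motif. The 500 bp peak held no AP-1 motif, 3 RUNX motifs (TGTGGT) and 2 TEAD motifs.

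Downstream of HEG1 and beyond 100 kb, the introns of ITGB5, which encodes integrin beta 5, held 5 peaks in each list. The widest was shared, at chr3:124597402-124598201 in siCTL (800 bp) and chr3:124597402-124598301 in siFra-1 (900 bp), 177 kb from the HEG1 TSS, and held 2 AP-1 motifs. The other shared peak, 218 kb away, was the only pair of either locus that was narrower in siFra-1, with 250 bp at chr3:124556652-124556901 in siCTL and 150 bp at chr3:124556852-124557001 in siFra-1. The remaining ITGB5 peaks, 3 in each list, were 100 bp wide and not shared. MUC13, a mucin gene between ITGB5 and HEG1, held no peak in either list.

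**Figure D2:**
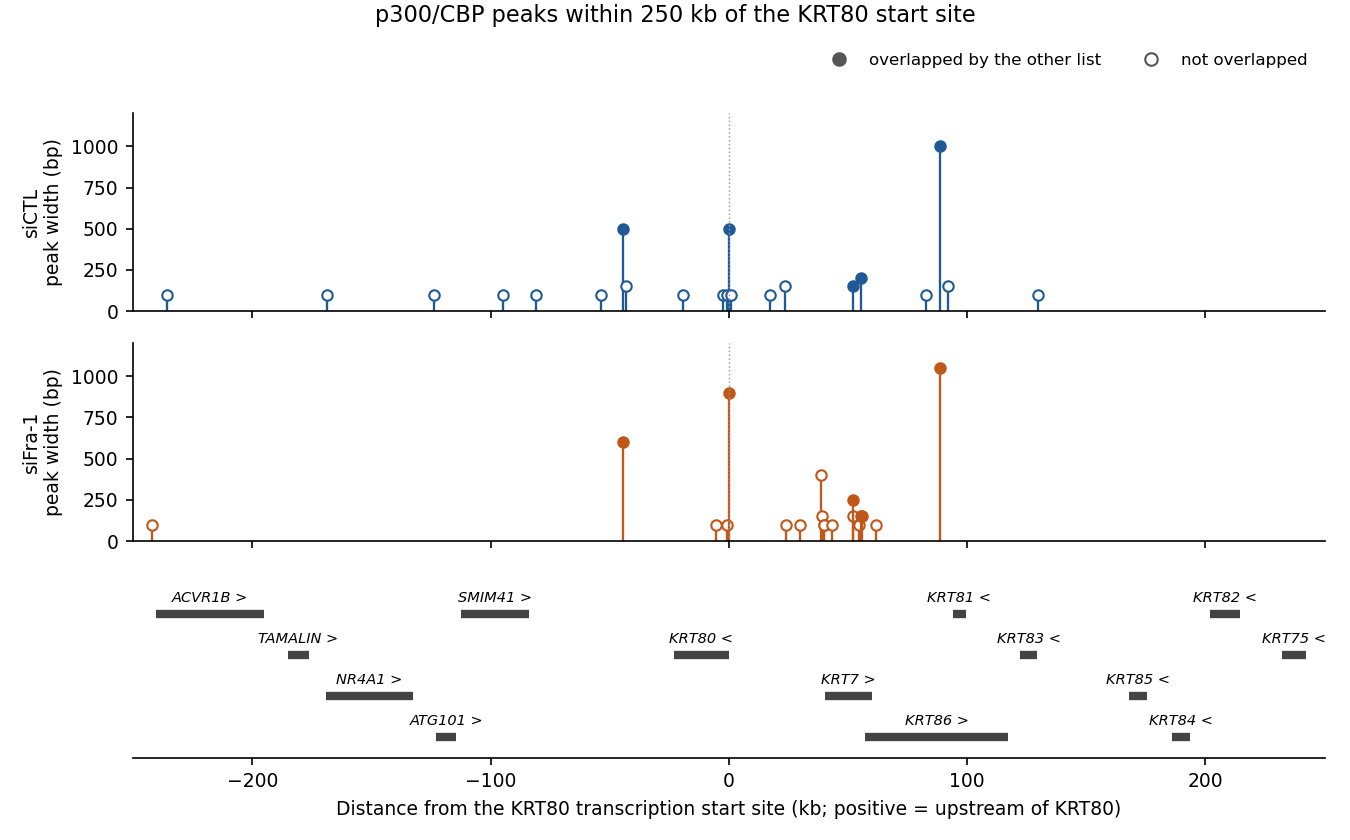
Each stem is 1 p300/CBP peak at its distance in kb from the KRT80 start site (x axis; positive is upstream) with its width in bp (y axis), for siCTL (top) and siFra-1 (middle), and protein-coding genes below with < or > for the strand. The 3 widest siCTL peaks have siFra-1 peaks at the same places, and the siFra-1-only peak of 400 bp stands just upstream of KRT7.

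Around KRT80, the gene's own promoter carried a peak in both lists. In siCTL it spanned chr12:52585702-52586201 (500 bp), with its centre 0.153 kb upstream of the TSS, and in siFra-1 chr12:52585602-52586501 (900 bp), with its centre 0.253 kb upstream. The siFra-1 peak extended 100 bp further into the gene and 300 bp further upstream. Among 174 pairs with a siCTL width of 500 bp, 6 (3.45%) were 900 bp or wider in siFra-1, and the median was 500 bp. The widened peaks at the KRT80 TSS and upstream of HEG1 thus stood at the same 400 bp of gain, against no gain at the median of pairs of their siCTL width.

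The shared stretch of the KRT80 promoter held 3 SP/KLF motifs, bound by zinc finger factors of the SP and KLF families. One AP-1 motif lay towards the upstream end of the siCTL peak, 210 bp from its centre, and further inside the siFra-1 peak, 110 bp from its centre. The motif thus fell outside the 200 bp around either centre. In the siCTL list narrow unshared peaks flanked the promoter, at 0.897 kb downstream and 1.1 kb upstream, and in the siFra-1 list a peak of 100 bp lay 0.597 kb downstream. The KRT80 body held 3 siCTL and 2 siFra-1 peaks, all of 100 bp and none shared.

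**Figure D3:**
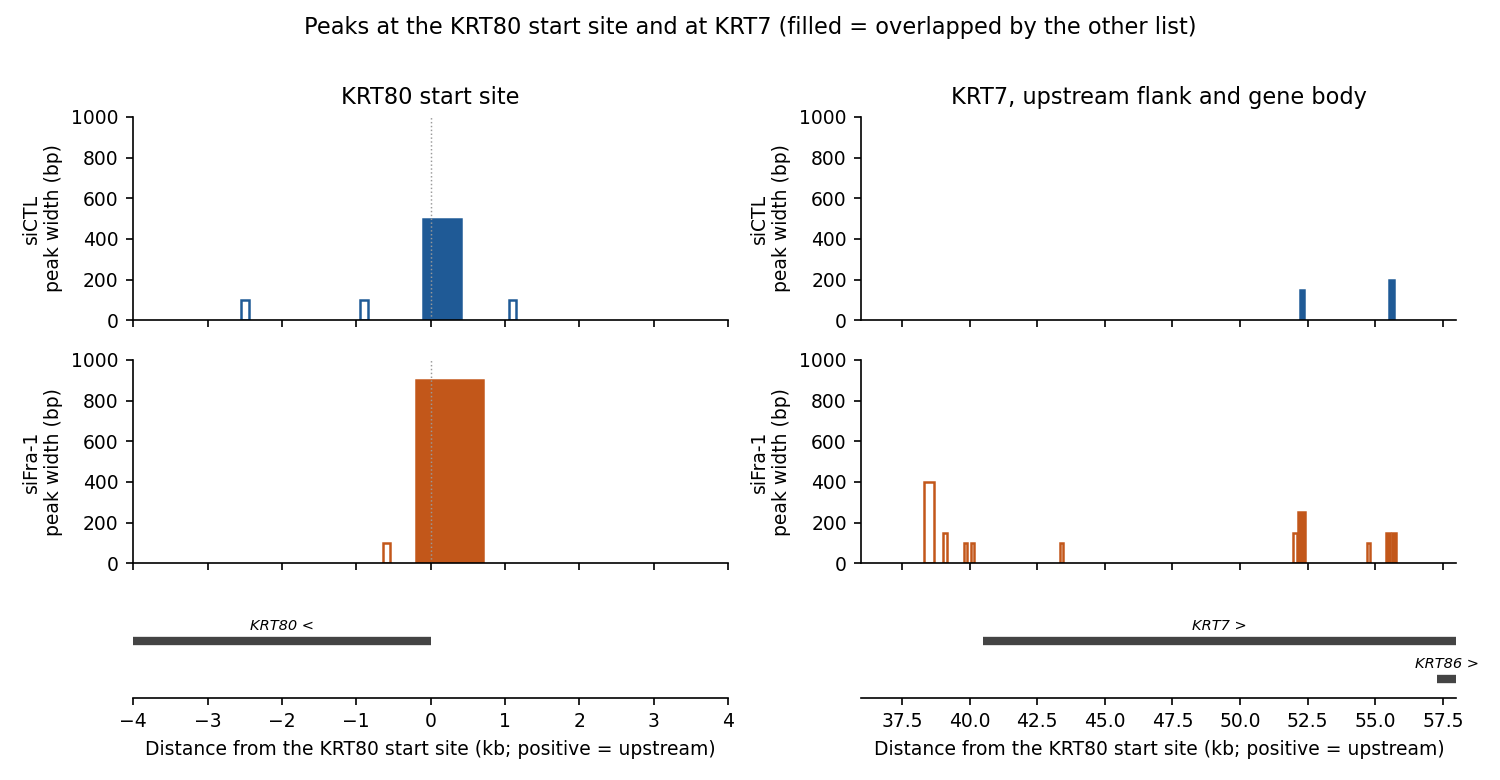
Peaks drawn to scale along the distance from the KRT80 start site (x axis, kb) with their width as height (y axis, bp), at the KRT80 start site (left) and around the 5′ part of KRT7 (right); filled boxes overlap a peak of the other list. The promoter peak is 500 bp wide in siCTL and 900 bp in siFra-1, and 4 open siFra-1 boxes lie left of the KRT7 start where siCTL has none.

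KRT7 encodes a simple-epithelium keratin that pairs with type I keratins in glandular cells, and its TSS lies 40.5 kb upstream of that of KRT80, on the other strand. Directly upstream of KRT7, siFra-1 cells had 4 peaks and siCTL cells none. The widest, of 400 bp, lay at chr12:52624102-52624501, 2 kb from the annotated KRT7 start. It was followed by peaks of 150, 100 and 100 bp at 1.43, 0.653 and 0.403 kb from it, which are singled out here after their values were seen. The nearest siCTL peak was 12050 to 13500 bp from these peaks. The main transcript of KRT7 starts 0.723 kb further into the gene than the annotated gene does. The 400 bp peak held 1 AP-1 motif in its central 200 bp, 1 TEAD and 1 RUNX motif, and the 150 bp peak held 2 TEAD motifs and 1 C/EBP motif.

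Inside KRT7 the lists shared 2 places. In an intron 52.3 kb upstream of the KRT80 TSS, a siCTL peak of 150 bp at chr12:52638002-52638151 faced a siFra-1 peak of 250 bp at chr12:52637952-52638201. At 55.6 kb, a siCTL peak of 200 bp at chr12:52641302-52641501 faced 2 siFra-1 peaks of 150 bp, at chr12:52641202-52641351 and chr12:52641402-52641551. Each of these places held 1 AP-1 motif. In all, KRT7 held 2 siCTL and 6 siFra-1 peaks. Read by nearest annotated protein-coding TSS, 1 siCTL and 7 siFra-1 peaks of the region belonged to KRT7, and 9 siCTL and 4 siFra-1 peaks to KRT80. This split depends on the next gene, KRT86, whose main transcript starts 25.3 kb further into the gene than the annotated gene does. By that start, the peaks inside KRT7 that were read to KRT86 would be nearest to KRT7.

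The widest peak of either locus lay in KRT86, a hair keratin gene, 88.8 kb upstream of the KRT80 TSS. By annotated starts it was nearest to the TSS of KRT81, another hair keratin gene, and by main transcripts to that of KRT86 itself. The peak spanned chr12:52674102-52675101 in siCTL (1000 bp) and chr12:52674052-52675101 in siFra-1 (1050 bp). It held 4 TEAD motifs and no AP-1 motif in either list. On the other side of KRT80, an intergenic shared peak 44.5 kb downstream spanned chr12:52541052-52541551 in siCTL (500 bp) and chr12:52541052-52541651 in siFra-1 (600 bp), and held 2 AP-1 motifs and 1 TEAD motif.

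Beyond the shared peak downstream of KRT80, siFra-1 cells had 1 peak of 100 bp, at 242 kb, and siCTL cells had 6 of 100 bp, at 53.7 to 236 kb. Of these siCTL peaks, 1 lay 0.435 kb inside the annotated start of NR4A1, which encodes an orphan nuclear receptor, and 1 lay 0.829 kb upstream of ATG101, an autophagy gene. The main NR4A1 transcript starts 28.6 kb further on. These are named after their values were seen.

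The second comparison asked which peaks the lists shared, by at least 1 bp. Of the siCTL peaks around the 2 genes, 8 of 30 were overlapped by a siFra-1 peak (26.7%, Wilson 95% interval 14.2 to 44.4), against 9.56% of the whole siCTL list. Of the siFra-1 peaks, 9 of 32 were overlapped (28.1%, 15.6 to 45.4), against 19.1% of the whole list. HEG1 had 3 of 9 and 3 of 13, and KRT80 had 5 of 21 and 6 of 19. The whole lists differ in width from the peaks around the 2 genes. Peaks of 250 bp and over were 6 of 30 here in siCTL, against 3655 of 82901 in the whole list. In siFra-1 they were 9 of 32, against 5989 of 39320. The shares over all widths are therefore not like for like.

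Sharing went with width. None of the 100 bp peaks was shared, 0 of 19 in siCTL and 0 of 18 in siFra-1, against 3.79% and 6.56% of the 100 bp peaks in the whole lists. All 6 siCTL peaks of 250 bp and over were shared, against 85% of the whole list. Of the siFra-1 peaks of that width 6 of 9 were shared, against 68.2%, and the others were those in SLC12A8 and upstream of KRT7. No siCTL peak without a siFra-1 overlap was wider than 150 bp. The closest miss was at KRT80, where a siCTL peak of 150 bp and a siFra-1 peak of 100 bp, 23.6 and 23.8 kb upstream, lay 50 bp apart.

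Of the 7 peaks that overlapped 1 to 1, 6 were wider in siFra-1, by 50 to 400 bp. Over the genome 50.7% of 6524 such pairs were wider in siFra-1, 25% were equal and 24.3% narrower. At a siCTL width of 500 bp and over, 45.3% of 640 pairs were wider. Each of the 5 pairs of the 2 loci in that range was wider, by 400 bp at 2 places and by 50 or 100 bp at the others.

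**Figure D4:**
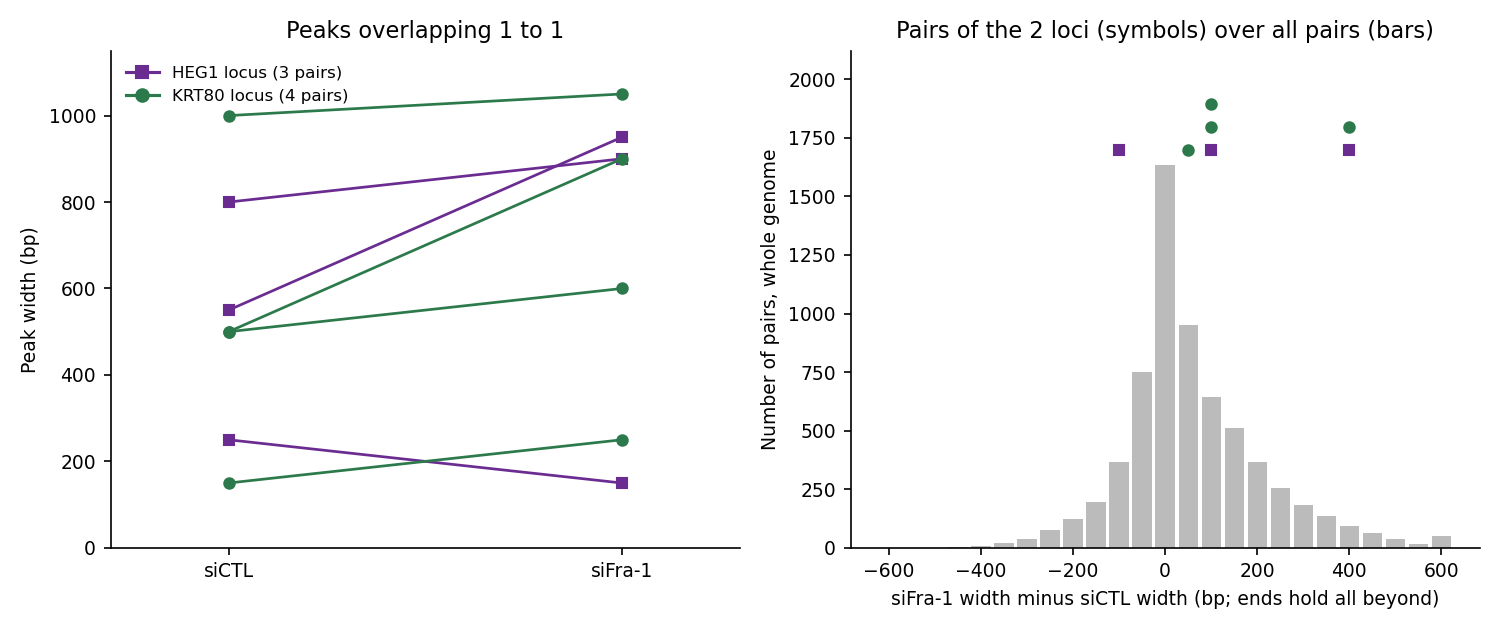
Left, width in bp (y axis) of the 7 peaks that overlapped 1 to 1, with 1 line per pair from siCTL to siFra-1. Right, the siFra-1 minus siCTL width (x axis, bp) of all such pairs in the whole lists (bars, number of pairs) with the 7 pairs as symbols above; 6 symbols lie right of 0 and 2 of them at 400 bp.

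The numbers also depended on width and spacing. At 250 bp and over, HEG1 had 1 peak in siCTL and 3 in siFra-1 within 100 kb, and KRT80 had 3 and 5. Of 6403 protein-coding genes with a peak of this width in the window, 49.5% had more siFra-1 peaks, so at this width a siFra-1 excess was common. The siFra-1 peaks of KRT80 lay close together. Of these, 10 of 19 (52.6%, 31.7 to 72.7) had another peak of the list within 500 bp, against 17.9% of the whole siFra-1 list, and 2 of 13 did around HEG1. In siCTL no peak of either locus had such a neighbour, against 10.9% of the whole list.

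Counting siFra-1 peaks within 500 bp of each other as 1 reversed the order at KRT80. Within 100 kb there were then 17 peaks in siCTL and 13 in siFra-1, which gives 0.765 (0.342 to 1.67), while HEG1 had 3 and 6. After this joining, 6.91% of protein-coding genes with a peak in the window had more siFra-1 than siCTL peaks. The 32 other viewpoints together gave 0.512 (0.433 to 0.604). The joined groups at KRT80 lay over the promoter, at 2 places upstream of KRT7 and at 2 places inside it. The joined peaks, gaps included, covered 3700 bp in siCTL and 5600 bp in siFra-1, so the covered length did not turn with the count.

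**Figure D5:**
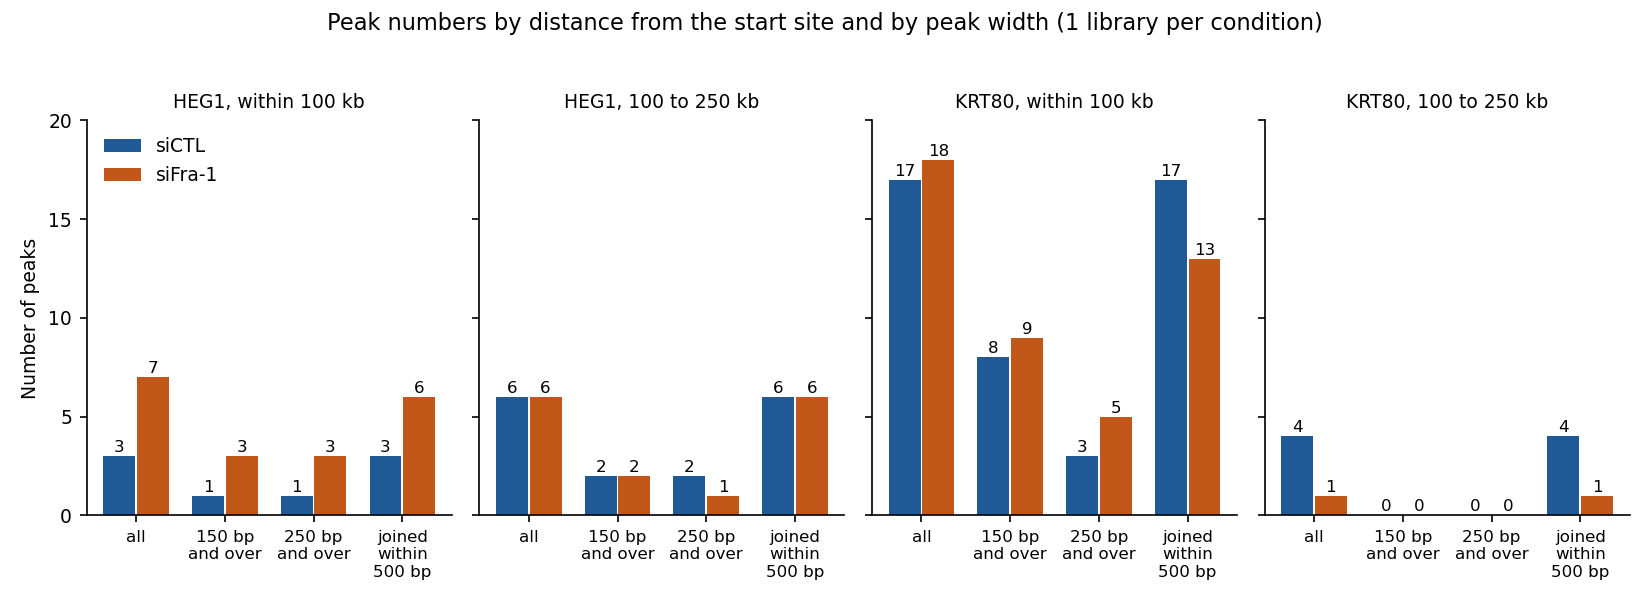
Number of peaks (y axis) in siCTL and siFra-1 within 100 kb and from 100 to 250 kb of each start site, counted as deposited, at 150 bp and over, at 250 bp and over and after joining peaks within 500 bp. Within 100 kb HEG1 has more siFra-1 peaks in each count, and KRT80 goes from 17 against 18 to 17 against 13 when neighbours are joined.

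Most peaks lay away from promoters. Introns, also those of non-coding genes, held 22 siCTL and 23 siFra-1 peaks, and 7 of each list were intergenic. These classes do not set promoters apart, since all peaks in the promoter windows below are counted in them as well. The 3 kb windows around protein-coding start sites were reached by 6 of 30 peaks in siCTL (20%, 9.51 to 37.3) and by 5 of 32 in siFra-1 (15.6%, 6.86 to 31.8), against 3.98% and 4.84% of the whole lists. All 11 lay around KRT80, where 14 start sites lie close together. The regions were also drawn around a start site, which the whole lists were not, so these shares are not like for like. The siFra-1 peaks there belonged to the windows of KRT80 (2) and KRT7 (3). The siCTL peaks belonged to those of KRT80 (3) and of NR4A1, ATG101 and the hair keratin gene KRT83. With the start of the main transcript in place of the gene's annotated end, the numbers were 5 and 5, with 1 siFra-1 peak at ITGB5, on the HEG1 side. In windows of 5 kb the order of the lists turned, with 8 of 30 (26.7%) in siCTL and 10 of 32 (31.2%) in siFra-1.

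The third comparison asked which peaks held the AP-1 motif, which Fra-1 binds. In the 200 bp around the centre, 6 of 30 peaks held it in siCTL (20%, 9.51 to 37.3) and 7 of 32 in siFra-1 (21.9%, 11 to 38.8). The shares of the whole lists were 6.15% and 9.08%, but those lists hold relatively fewer wide peaks. Among siCTL peaks of 250 bp and over, the 200 bp window held the motif in 2 of 6 (33.3%), against 31.9% of the whole list. Among siFra-1 peaks of that width it was 4 of 9 (44.4%), against 22.9%. In 400 bp the shares over all peaks of the 2 loci were 26.7% and 37.5%. A wider window finds more motifs anywhere, and no whole-list share is given for 400 bp. In 200 bp windows moved by 2 kb to either side of the same peaks the shares were 6.67% and 3.12%. In peaks of 250 bp and over, searched whole, 3 of 6 siCTL and 6 of 9 siFra-1 peaks held it, against 41.6% and 32.5% of such peaks in the whole lists.

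Counted once, the peaks of both loci held 11 AP-1 motifs, 3 around HEG1 and 8 around KRT80. Of these, 7 lay in peaks of both lists, 1 in a siCTL-only peak and 3 in siFra-1-only peaks. Those in siFra-1-only peaks lay in SLC12A8, upstream of KRT7 and in a 100 bp peak 30 kb upstream of KRT80. Which AP-1 protein, if any, was bound at these motifs was not measured in these lists.

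In all, 10 motifs were searched on both strands, TGAGTCA or TGACTCA for AP-1, TGACGTCA for CRE, GGAATG for TEAD, TGTGGT for RUNX, TTGCNNAA for C/EBP, CCGGAA for ETS, GGGCGG for SP/KLF, TGTTTAC for FOX, CACGTG for the E-box and the CTCF consensus. In the 200 bp windows TEAD was in 5 of 30 siCTL and 11 of 32 siFra-1 peaks, against 13.2% and 17.4% of the whole lists. RUNX was in 1 and 5 peaks, against 15.6% and 17.6%, and FOX in 3 and 5, against 3.15% and 4.69%. C/EBP was in 3 (10%) and 4 (12.5%), near the 10.1% and 11.1% of the whole lists. ETS was in 0 and 1, against 2.01% and 3.08%. SP/KLF was in 7 siCTL peaks and 1 siFra-1 peak, against 4.3% and 5.23%, and the siCTL peaks with it all lay around KRT80. Searched whole, 5 siCTL and 2 siFra-1 peaks held it, and the KRT80 promoter peak, with 3 such motifs in either list, counted in the 200 bp window for siCTL alone because the centre of the siFra-1 peak lay 100 bp away. CRE, the E-box and CTCF were in none of the 62 windows. Where motifs overlapped, each was counted, and neighbouring peaks share sequence, so these counts are not independent. The whole lists hold relatively fewer wide peaks, so their motif shares are not matched for width.

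The last comparison set HEG1 and KRT80 beside genes related to them. HEG1 acts with KRIT1, CCM2 and PDCD10, the proteins of cerebral cavernous malformation, with RASIP1 and the RAP1 GTPases at junctions formed by CDH5, and upstream of the kinases MAP3K3, MAP2K5 and MAPK7 and of KLF2 and KLF4. Of these 12 genes, 1 had more siFra-1 than siCTL peaks within 100 kb, 1 as many and 10 fewer, and the sums were 106 and 53. These shares were close to those of protein-coding genes with a peak in this window, of which 7.68% had more and 85.8% fewer. CDH5 had 3 siCTL and 4 siFra-1 peaks, and RAP1B had 3 and 3. KLF2, a flow-responsive zinc finger factor of endothelium, had 19 and 8, and RAP1A had 24 and 7.

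Of the 26 type II keratin genes, KRT80 included, 12 had more siFra-1 peaks within 100 kb, 3 as many and 11 fewer. The 3 with as many include 2 with no peak in either list. Of protein-coding genes with a peak in this window, 7.68% had more. Windows of the keratin genes overlap, so that 1 peak is counted for several genes. KRT80 was chosen on this count, and the windows of its neighbours hold many of the same peaks. The keratin numbers are therefore no separate support for the excess at KRT80. KRT7 had 16 siCTL and 18 siFra-1 peaks, KRT81 had 10 and 15, and KRT8, a simple-epithelium keratin at the far end of the cluster, had 9 and 13. KRT5, a keratin of basal epithelial cells, had 3 and 2. With each peak counted once, the cluster from KRT80 to KRT8, 781 kb long, held 24 peaks in siCTL and 29 in siFra-1, which gives 1.21 (0.679 to 2.17). These also include peaks that KRT80 was chosen on. At 250 bp and over the cluster held 3 and 8. Of protein-coding genes with a peak of this width within 100 kb, 49.5% had more siFra-1 peaks. After joining neighbours, 7 of the 26 genes had more siFra-1 peaks within 100 kb, 4 as many and 15 fewer. Among protein-coding genes with a peak in this window, 6.91% then had more.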

How the data were processed

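The p300/CBP ChIP-seq data comprise 1 library for each of 2 conditions, siCTL and siFra-1, of MDA-MB-231 cells. The input sample was not analysed here. The authors pooled immunoprecipitations before library preparation and mapped reads to hg19, with BWA-backtrack according to their methods, while the submitters' processing notes list Bowtie2. They made signals in 50 bp bins with PASHA, scaled them, subtracted the background and called runs above a threshold of 25, with a gap of at most 50 bp and a run of at least 50 bp. A parameter named AThr, whose meaning is not given in the sources used here, was 79 for siCTL and 130 for siFra-1. Scaling and a fixed threshold precede the lists, so how a library was scaled also moves the number and width of its peaks.

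The deposited lists hold only positions, other values being absent. They were read as BED intervals, with 1 added to starts. If the lists were written with 1-based starts, printed starts are 1 bp too high. No peak lay past the end of a GRCh37 chromosome. Genes came from GENCODE release 44 lifted to GRCh37 (20163 protein-coding genes), with the gene's 5′ end as TSS. Counts, overlaps (at least 1 bp), promoter windows (3 kb) and motifs (200 bp around peak centres) were computed in Python (3.11.15) using scipy (1.17.1), pandas (2.3.3) and numpy (2.4.6), with matplotlib (3.10.9) for plots. Functions were tested on simulated data and checked against bedtools 2.31.1. Shares have Wilson and ratios exact 95% intervals, both for counting error only. With 1 library per condition no test was possible. Positions were printed for peaks of 250 bp and over, shared peaks, the peak nearest each TSS, and all peaks within 100 kb where a list had 10 or fewer there. Alternatives were other distances, widths, overlaps, motif windows and promoter windows, and joining peaks within 500 bp. The genes, gene lists and motifs were chosen with earlier results of these data known.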

Additional observations from a re-analysis of the deposited data

How the results depend on the processing

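Of 48 alternative values, 36 stayed within the 95% counting interval of the value they stand beside without crossing a ratio of 1, 7 left it and 5 crossed 1. The intervals are wide, so staying within them is a weak sign of stability. The HEG1 ratio over the whole region, 1.44, fell to 1 within 50 kb and in the gene body and to 1.07 within 500 kb, and its ring went from 1 to 0.5 for peaks of at least 250 bp. The 5 crossings concerned peak numbers at KRT80. The siFra-1 to siCTL ratio over its whole region, 0.905, became 1.22 within 50 kb, 1.06 within 100 kb, 1.12 for peaks of at least 150 bp and 1.67 for peaks of at least 250 bp. Within 100 kb, 1.06 became 0.765 when neighbours within 500 bp were joined. All these intervals include 1, so the order of the 2 lists at KRT80 is not settled at these numbers. The share of siCTL peaks overlapped rose from 26.7% to 72.7% and 83.3% when both lists were held to at least 150 or 250 bp, and that of siFra-1 peaks from 28.1% to 64.3% and 55.6%, because the 100 bp peaks that were left out were not shared. The AP-1 share was 45.5% for siCTL peaks of at least 150 bp and 44.4% for siFra-1 peaks of at least 250 bp. In 400 bp windows it was 26.7% for siCTL and 37.5% for siFra-1, against 20% and 21.9% in 200 bp. Promoter shares, 20% for siCTL and 15.6% for siFra-1, were 10% and 6.25% in windows of 1 kb and 26.7% and 31.2% in windows of 5 kb. The ring around KRT80 held no peak of at least 150 bp, so no ratio could be given there. The joining and width alternatives within 100 kb and the start of the main transcript were added after the data were seen. No paired analysis was possible because each condition had 1 library. The lists give no depth or height, so a peak missing from a list may lie just under the threshold.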
